A study of Mus musculus with 60 samples.

Results

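The genes described here are 5 transcripts placed around androgen signaling in the mouse kidney, Srd5a2, Kap, Hao2, Acsm3 and Prlr, out of 55335 gene IDs in the count files. They were chosen by name, by matching Ensembl IDs to GENCODE mouse symbols, after earlier results of the same data were known, and the choice drew on their difference between genotypes. Their difference between genotypes is therefore given below as values with no test, and the members are tested only for time of day, for the genotype by time interaction and for differences between mice of one group. The genotype test is given for other genes only. All 5 passed the filter on low values, which kept 15546 genes.

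Androgens, of which dihydrotestosterone is more potent than testosterone, act on gene transcription in the renal tubule of the mouse and keep many transcripts at a higher level in males. Srd5a2 encodes steroid 5-alpha-reductase type 2, which makes dihydrotestosterone from testosterone, and Kap encodes the kidney androgen-regulated protein, a classic androgen-induced transcript of the mouse proximal tubule. Prlr encodes the prolactin receptor, a cytokine receptor that signals through JAK2 and STAT5. Hao2 encodes a peroxisomal oxidase of L-2-hydroxy acids, and Acsm3 encodes a mitochondrial acyl-CoA synthetase for medium-chain fatty acids.

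The study followed kidney mRNA over the day in mice that lost the clock gene Bmal1 (Arntl) in the renal tubule. The 12 groups were 2 genotypes at 6 time points 4 hours apart, from ZT0 (lights on) to ZT20, with 5 mice in each. Mice of the knockout group, called cKOt, were Bmal1lox/lox/Pax8-rtTA/LC-1 Cre, in which the Pax8 promoter drives a doxycycline-dependent activator that turns on Cre along the renal tubule. Controls were Bmal1lox/lox littermates without those transgenes, so both genotypes carried the floxed allele. All mice were males on a C57BL/6J background, kept in 12 hours of light and 12 hours of dark with food and water freely available. At 8 weeks of age mice of both genotypes drank doxycycline at 2 mg/ml with sucrose at 20 mg/ml for 2 weeks. The kidneys were collected 4 weeks after doxycycline ended. The labels name the tissue as renal tubule, whereas the methods of the study describe whole kidney tissue, and markers of endothelium and podocytes, cells that this Cre does not target, were present in every library. No female, castrated or hormone-treated mice were among the samples, and no hormone level is in the files.

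Each library held 17791420 to 20906706 reads counted to genes (median 18545209). The sum of 10 proximal tubule markers ranged from 11464 to 15613 CPM (counts scaled to the size of the library) in controls and from 11262 to 17175 CPM in cKOt mice, while 6 adrenal cortex markers together stayed between 0.711 and 2.96 CPM over all 60 mice. Arntl, counted over the whole gene and so not only over the deleted part, ran from 2.73 ± 0.825 CPM (SD, n = 5) at ZT8 to 48.4 ± 10.2 at ZT0 in controls, and from 17.4 ± 2.01 at ZT12 to 24.4 ± 1.57 at ZT0 in cKOt mice. Markers of endothelium and fibroblasts (5 of 5 each) and of immune cells (5 of the 5 that passed the filter on low values, out of 6) were lower in cKOt mice (edgeR's quasi-likelihood test, adjusted p under 0.05 after the Benjamini-Hochberg method), by a median of 0.11, 0.20 and 0.34 on the log2 scale, where 23.2% of all genes were lower and 26.8% higher. By number of genes, markers of later tubule segments leaned the other way, with 3 of 5 higher and 1 lower for the thick ascending limb, 3 of 4 higher and 0 lower for the distal convoluted tubule and 4 of 7 higher and 1 lower for the collecting duct (medians 0.12, 0.17 and 0.080). The lower marker of the thick ascending limb was its most abundant, Umod (3163 ± 404 CPM in controls and 2354 ± 245 in cKOt mice, SD, n = 30 each). Medians of the summed markers in controls and cKOt mice were 4579 and 4119 CPM for the thick ascending limb. They were 1436 and 1658 CPM for the distal convoluted tubule and 263 and 295 CPM for the collecting duct. Of the 10 proximal tubule markers 5 were higher and 4 lower, and of 5 podocyte markers 1 was higher. The summed levels overlapped between genotypes, for immune cells 108 to 230 CPM in controls and 89.0 to 170 CPM in cKOt mice, and the part of these cell types in the results below was not tested. In such bulk RNA, fewer cells of a type and less RNA per cell cannot be told apart. The library of cKOt mouse 4 at ZT16 is marked for removal in the study's sample list, and was kept here.

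The stretch before the start site is shown for Srd5a2 and Hao2, the members with the widest gaps between genotypes, and for the second of 3 annotated starts of Prlr. Of these 3 starts, only the second had a match to the motifs below. The letters come from RefSeq windows on GRCm38.p6, run 5′ to 3′ on the strand of the gene, and leave out bases that GENCODE places in the first exon (56 for Srd5a2 and 9 for Hao2). Capitals mark matches to 7 short motifs searched on both strands in the 250 bases before each RefSeq start.
Srd5a2, chr17:74047917-74048110, minus strand: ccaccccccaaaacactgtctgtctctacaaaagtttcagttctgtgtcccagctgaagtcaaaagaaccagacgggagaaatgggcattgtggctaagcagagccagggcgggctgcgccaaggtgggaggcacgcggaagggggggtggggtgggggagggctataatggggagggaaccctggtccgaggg
Hao2, chr3:98893240-98893480, minus strand: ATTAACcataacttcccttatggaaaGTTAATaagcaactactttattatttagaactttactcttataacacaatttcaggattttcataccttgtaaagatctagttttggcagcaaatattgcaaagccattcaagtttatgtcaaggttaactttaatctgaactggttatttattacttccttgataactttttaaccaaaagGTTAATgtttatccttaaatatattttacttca
Prlr, chr15:10223656-10223905, plus strand: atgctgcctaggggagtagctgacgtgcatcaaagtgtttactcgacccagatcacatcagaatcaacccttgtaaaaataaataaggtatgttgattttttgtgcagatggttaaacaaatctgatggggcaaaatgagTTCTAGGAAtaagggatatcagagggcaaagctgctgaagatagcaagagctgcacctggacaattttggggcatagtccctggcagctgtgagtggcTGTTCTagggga

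The motifs were the E-box CACGTG bound by BMAL1, the full steroid response element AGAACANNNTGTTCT and its 6-base core AGAACA (contained in the full one), the HNF1 core GTTAAT, the nuclear receptor core AGGTCA, the STAT site TTCNNNGAA and the TATA box TATAAA. Srd5a2 and Acsm3 held none of them in the 250 bases. Hao2 held GTTAAT at 3 places, at 250, 224 and 42 bases before the start. The second Prlr window held TTCNNNGAA at 110 bases and AGAACA on the opposite strand at 12 bases before the start, and Kap held TATAAA at 31 bases. GTTAAT was found in 6.43% of 32851 mouse windows of this length, TTCNNNGAA in 7.02%, AGAACA in 16.1%, TATAAA in 12.4%, CACGTG in 6.02%, AGGTCA in 14.0% and the full steroid response element in 3 windows. G and C made up 28.4% of the Hao2 window and 63.2% of that of Srd5a2, against a median of 52.4% over all windows. A match says only that these letters occur there.

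Srd5a2, which makes the more potent androgen, was lower in cKOt mice at every time point. In controls its level was 5.76, 9.79, 32.2, 7.57 and 8.06 CPM at ZT0. At ZT12 the 5 control mice were at 22.8, 12.2, 30.6, 33.6 and 11.9 CPM. The spread between control mice of one time point was thus wide, and mouse 3 at ZT0 was far above the others of its group. In cKOt mice the values were 3.04, 3.10, 2.84, 2.86 and 4.05 CPM at ZT0. At ZT12 they were 4.59, 3.96, 2.68, 2.88 and 4.82 CPM. No cKOt mouse reached the lowest control of its own time point at any of the 6 times. Over all times the controls lay between 5.76 and 36.1 CPM (median 16.6) and the cKOt mice between 2.68 and 6.30 CPM (median 3.52). The means were 18.1 ± 8.89 and 3.61 ± 0.81 CPM (SD, n = 30 each), and 29 of 30 cKOt mice were below every control. The 2 genotypes differed by -2.28 ± 0.12 on the log2 scale (SE), 4.84-fold lower in cKOt mice. For comparison, 7.3%, 11.1%, 9.49%, 9.73%, 9.04% and 6.86% of all genes did not overlap between genotypes at ZT0, ZT4, ZT8, ZT12, ZT16 and ZT20, and 0.675% were lower in cKOt mice without overlap at all 6. Within the 6 batches that the study's sample list names, without saying of what step, the difference ranged from -2.63 to -1.46.

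**Figure D1:**
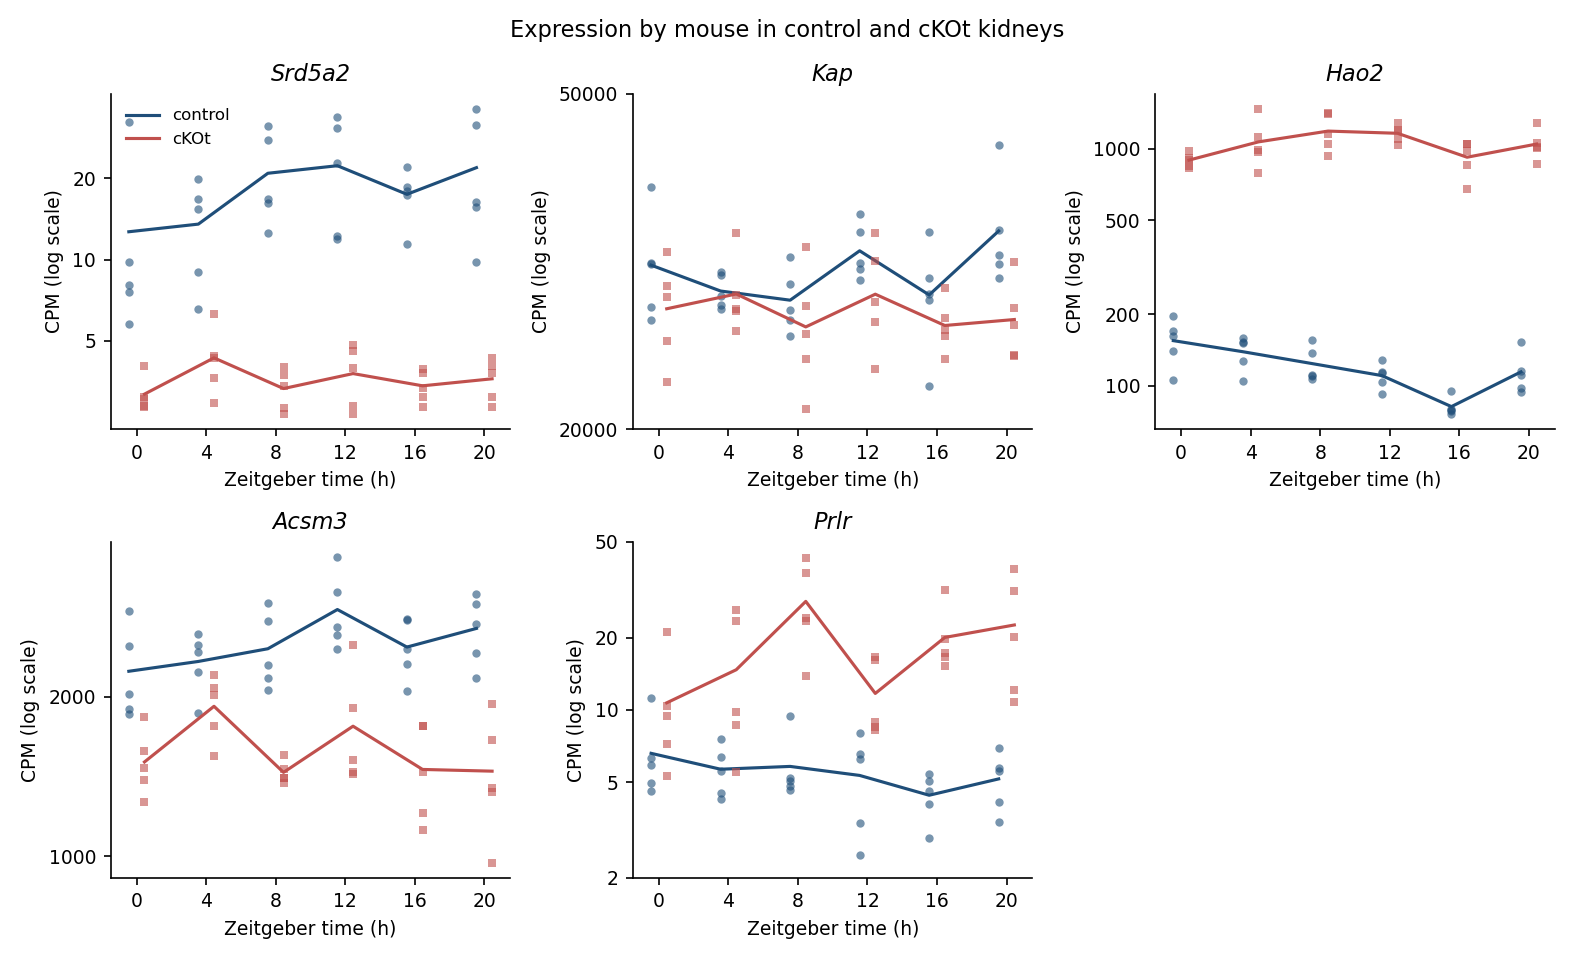
Expression of Srd5a2, Kap, Hao2, Acsm3 and Prlr in CPM (vertical axis, log scale) against zeitgeber time in hours (horizontal axis). Each point is 1 mouse (circles, control; squares, cKOt; 5 per genotype and time), drawn slightly to either side of its time, and lines join group means. The genotypes do not overlap at any time for Srd5a2 and Hao2, overlap at 2 of 6 times for Acsm3 and Prlr, and overlap at all 6 times for Kap.

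The level of Srd5a2 over the day could not be separated from the spread between mice. Its lowest and highest control means, 12.7 ± 11.0 CPM at ZT0 and 22.2 ± 10.1 CPM at ZT12 (SD, n = 5), overlapped. The adjusted p of edgeR's quasi-likelihood test was 0.13 for time in controls, a test passed by 30.6% of all genes, 0.98 for time in cKOt mice and 0.84 for the interaction. The 24 h harmonic regression assigned Srd5a2 to loss of rhythm in cKOt mice with a weight of 0.785, an amplitude of 0.80 (log2, peak to trough) and a peak at 12.6 h. Both calls depended on which mice were included. Without mouse 3 of every group, which includes the control at 32.2 CPM at ZT0, the adjusted p for time in controls was 0.00384, and without mouse 1 of every group the regression favored no rhythm in either genotype (weight 0.672).

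Kap was by far the most abundant member. Per kilobase of exon it stood at an RPKM (CPM divided by exon length in kilobases) of 43540 in controls and 39045 in cKOt mice, against 511 and 322 RPKM for Acsm3, 58.8 and 511 for Hao2, 11.3 and 2.25 for Srd5a2 and 0.358 and 1.17 for Prlr. By RPKM the order of the other members therefore changed with genotype, since Hao2 stood below Acsm3 in controls and above it in cKOt mice. By mean CPM Acsm3 stood above Hao2 in both genotypes (2524 and 121 in controls, 1589 and 1047 in cKOt mice). By that measure Srd5a2 and Prlr changed places instead (18.1 and 5.50 CPM in controls, 3.61 and 18.0 in cKOt mice). In CPM, Kap ranged from 22512 to 43493 (median 30377) in the 30 controls and from 21140 to 34214 (median 27358) in the 30 cKOt mice. The genotypes overlapped at every time point, and 29 of 30 cKOt mice were inside the control range. The means were 30783 ± 4014 and 27605 ± 3335 CPM (SD), a difference of -0.18 ± 0.029 (log2, SE). Time of day did not pass the test in controls (adjusted p = 0.26, edgeR) or in cKOt mice (0.65), nor did the interaction (0.53). The regression assigned no rhythm in either genotype (weight 0.757).

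Hao2, the peroxisomal hydroxyacid oxidase, was higher in cKOt mice than in controls by the widest margin of the 5 genes. Control values were 197, 139, 106, 171 and 161 CPM at ZT0. They were 110, 156, 137, 106 and 109 CPM at ZT8, and 78.5, 79.9, 78.0, 95.2 and 75.7 CPM at ZT16. Every control mouse at ZT16 was below every control mouse at ZT0. In cKOt mice the values were 850, 826, 918, 901 and 983 CPM at ZT0. They were 1049, 1401, 1409, 929 and 1150 CPM at ZT8, and 856, 1049, 1051, 974 and 674 CPM at ZT16. All 30 cKOt mice were above all 30 controls, a separation that 0.347% of all genes showed in this direction, while 0.708% were higher without overlap at each of the 6 times. Ranges were 75.7 to 197 CPM (median 112) in controls and 674 to 1475 CPM (median 1027) in cKOt mice. The means were 121 ± 31.0 and 1047 ± 190 CPM (SD, n = 30 each), and the difference was 3.12 ± 0.058 (log2, SE), 8.68-fold. It lay between 2.92 and 3.38 within the 6 batches.

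The size of that difference depended on time of day. It was smallest at ZT0, at 2.53 ± 0.14 (log2, SE), and largest at ZT16, at 3.52 ± 0.14, and the interaction passed edgeR's quasi-likelihood test (adjusted p = 0.00145), as it did for 3.08% of all genes. Among the 5 members this test was passed only by Hao2, with an adjusted p between 0.000464 and 0.0538 over 13 alternatives. The highest of these, the one past the threshold, came from leaving out mouse 4 of every group. In controls the mean fell from 155 ± 34.2 CPM at ZT0 to 81.5 ± 7.81 CPM at ZT16 (SD, n = 5), a 1.90-fold range without overlap (adjusted p for time = 5.38e-06, edgeR). In cKOt mice the means ran from 896 ± 61.3 CPM at ZT0 to 1187 ± 213 CPM at ZT8, and time did not pass (adjusted p = 0.13), a test passed by 26.6% of all genes. The harmonic regression favored loss of rhythm with a weight of 0.614, below the 0.65 needed, so Hao2 was assigned to no model. In the order of the 12 group means, neighboring groups overlapped in 10 of 11 steps, and the step without overlap lay between the lowest cKOt group and the highest control group.

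**Figure D2:**
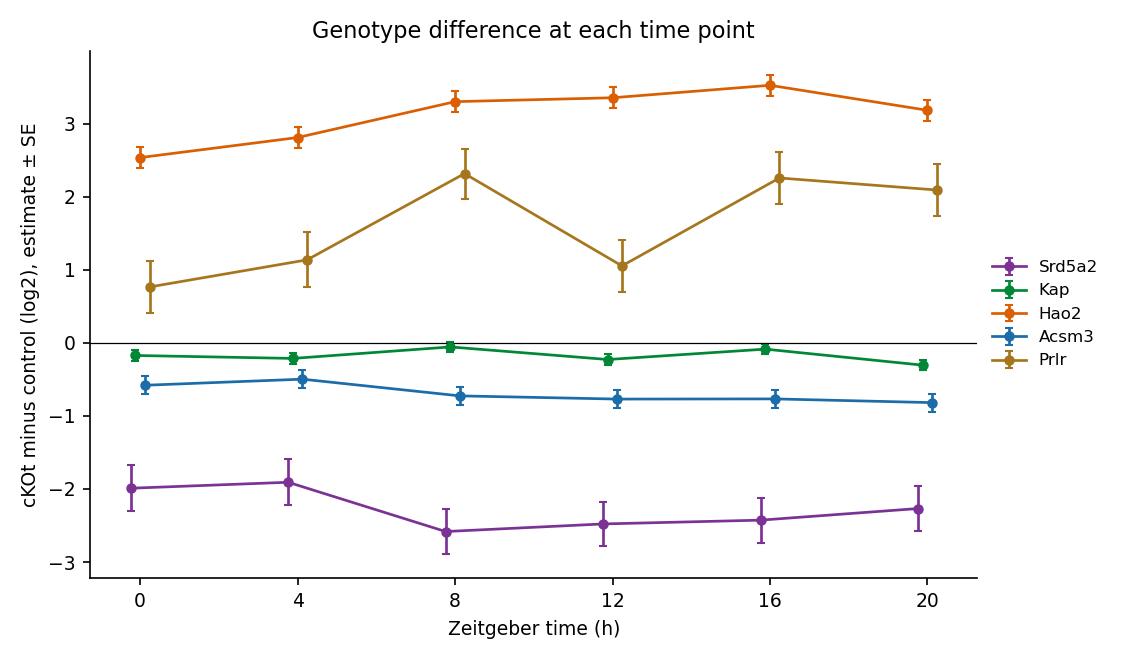
Genotype difference of each gene, as cKOt minus control on the log2 scale (vertical axis, estimate with SE bars), at the 6 zeitgeber times in hours (horizontal axis). Hao2 lies between 2.53 and 3.52, Prlr between 0.76 and 2.32, Kap between -0.31 and -0.057, Acsm3 between -0.82 and -0.50 and Srd5a2 between -2.58 and -1.91.

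Acsm3, the medium-chain acyl-CoA synthetase, was lower in cKOt mice. The controls ranged from 1859 to 3675 CPM (median 2481) and the cKOt mice from 972 to 2506 CPM (median 1492), with 24 of 30 cKOt mice below every control. Mice of the 2 genotypes overlapped at ZT4 and ZT12. At ZT12 the controls were at 2718, 2620, 3160, 3675 and 2460 CPM and the cKOt mice at 1908, 1430, 1442, 1518 and 2506 CPM, so that cKOt mouse 5 alone reached into the control range. The means were 2524 ± 434 and 1589 ± 335 CPM (SD, n = 30 each), a difference of -0.69 ± 0.050 (log2, SE), or 1.62-fold lower. The difference ran from -0.50 ± 0.13 at ZT4 to -0.82 ± 0.12 at ZT20, and these values did not pass the interaction test (adjusted p = 0.76, edgeR). Time of day did not pass in controls (adjusted p = 0.46) or in cKOt mice (0.35). Acsm3 overlaps Eri2 on the opposite strand of chromosome 7. Eri2 was at 17.0 ± 2.74 CPM in controls and 16.8 ± 3.01 CPM in cKOt mice (SD, n = 30), far below Acsm3. The strand setting of the counting is not given in the sources used here.

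Prlr, the prolactin receptor, was a low transcript that was higher and more uneven in cKOt mice. Controls held 43 to 203 reads per library, or 2.5 to 11.2 CPM (median 5.13). The cKOt mice held 98 to 805 reads, or 5.32 to 42.8 CPM (median 16.4). The means were 5.50 ± 1.84 and 18.0 ± 10.2 CPM (SD, n = 30 each), a difference of 1.60 ± 0.14 (log2, SE), or 3.04-fold, and 19 of 30 cKOt mice were above every control. In cKOt mice the values were 5.32, 10.4, 7.23, 21.2 and 9.39 CPM at ZT0. They were 23.6, 42.8, 37.1, 13.9 and 24.2 CPM at ZT8. They were 16.2, 16.7, 8.94, 8.28 and 8.47 CPM at ZT12, and 12.1, 20.2, 10.8, 31.3 and 38.5 CPM at ZT20. The level was thus high at ZT8, lower at ZT12 and again high at ZT16 and ZT20, with overlap between the highest group (28.3 ± 11.6 CPM at ZT8) and the lowest (10.7 ± 6.19 CPM at ZT0, SD, n = 5).

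Time of day passed the test for Prlr in cKOt mice (adjusted p = 0.000929, edgeR; 0.000302 to 0.0150 over 13 alternatives) but not in controls (0.87). The difference between those time courses did not pass the interaction test (adjusted p = 0.11). The single 24 h wave of the regression was not favored, and Prlr was assigned to no rhythm in either genotype with a weight of 0.894. Differences by time ran from 0.76 ± 0.35 (log2, SE) at ZT0 to 2.32 ± 0.34 at ZT8, and the genotypes overlapped at ZT0 and ZT4.

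Among mice of one genotype and time point, Srd5a2 was most uneven in controls and Prlr in cKOt mice. The pooled SD of log2 CPM within groups was 0.69 for Srd5a2 in controls and 0.29 in cKOt mice, where counting alone gave 0.090 and 0.18. For Prlr the SDs were in the other order, 0.46 in controls and 0.70 in cKOt mice, against 0.15 and 0.091 from counting. Hao2 (0.25 and 0.23), Acsm3 (0.23 and 0.27) and Kap (0.17 and 0.18) varied less between mice. All these SDs are from values not corrected for unwanted variation. After the correction for 2 factors of unwanted variation they were 0.55 in controls and 0.36 in cKOt mice for Srd5a2. For Prlr they were then 0.43 and 0.64, for Hao2 0.25 and 0.17, for Acsm3 0.17 and 0.22 and for Kap 0.11 and 0.11. As a description, each SD was set beside those of the 500 genes nearest in rank of mean level. Srd5a2 spread more than 99.4% of them in controls and 80.6% in cKOt mice, and Prlr more than 97.8% and 99.2%. Since 1 set served both genotypes, it is not matched to the level of Srd5a2 or Prlr within each genotype. For Kap, Hao2 and Acsm3 the comparison was with 1 shared set, the most abundant genes (median SD 0.12 in controls and 0.13 in cKOt mice). That set is not matched to the level of each of them. Kap stood above 79.4% and 79.0% of it, Hao2 above 96.0% and 90.2% and Acsm3 above 93.8% and 95.6%. In each genotype the gene that varied most between mice was thus the one of Srd5a2 and Prlr whose level was higher there than in the other genotype. Whether the spreads differed between genotypes was not tested. The study had chosen these mice partly by distance from the others of their group, so these are spreads among selected mice.

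**Figure D3:**
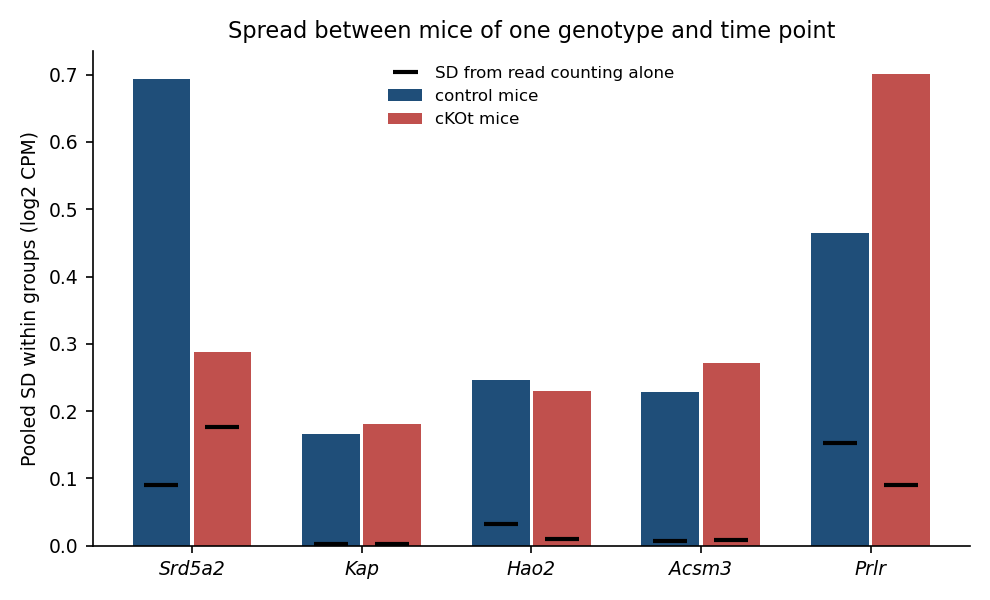
Pooled SD of log2 CPM between mice of one genotype and time point (vertical axis, bars from 0) for each gene. Values are not corrected for unwanted variation. Black dashes mark the SD that read counting alone would give. Srd5a2 spreads most in controls (0.69) and Prlr most in cKOt mice (0.70).

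These differences between mice were used to ask which members vary together, since they do not involve the difference between genotypes. Deviations of log2 CPM from the group mean were correlated over all 60 mice for the 10 pairs of members, with 100000 permutations within groups (two-sided) and Benjamini-Hochberg adjustment over the 10 pairs. Srd5a2 and Acsm3 varied together most closely (Pearson r = 0.64, adjusted p = 0.0001, the smallest the permutations can give; Spearman rho = 0.65, adjusted p = 0.0001). Without the 2 mice farthest from the median of Srd5a2, r was 0.60, and within the 6 batches r ran from 0.41 to 0.79. Mice with more Srd5a2 than others of their group also had more Acsm3. The control at 32.2 CPM of Srd5a2 at ZT0 had the highest Acsm3 of its group, at 2909 CPM, the lowest Hao2, at 106 CPM, and the lowest Prlr, at 4.61 CPM.

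Of the other 9 pairs, 3 passed by Pearson's r and 5 by Spearman's rho. Kap and Acsm3 rose and fell together (r = 0.43, adjusted p = 0.0057 by permutation; rho = 0.47, adjusted p = 0.00285), with r of 0.45 without the 2 farthest mice and 0.090 to 0.95 within batches, but r was 0.0041 (adjusted p = 0.98) after the correction for 2 factors of unwanted variation. Srd5a2 and Hao2 went in opposite directions (r = -0.41, adjusted p = 0.0215; rho = -0.35, adjusted p = 0.0337), with r of -0.33 without the 2 farthest mice and -0.75 to 0.58 within batches, negative in 5 of 6. Hao2 and Prlr went together (r = 0.38, adjusted p = 0.0215; rho = 0.39, adjusted p = 0.015), with r of 0.32 without the 2 farthest mice and -0.29 to 0.65 within batches, positive in 5 of 6, but after the same correction r was 0.29 (adjusted p = 0.0532) and rho 0.36 (adjusted p = 0.0189). Neither Srd5a2 with Hao2 nor Hao2 with Prlr passed without mouse 3 of every group (r = -0.21, adjusted p = 0.29, and r = 0.31, adjusted p = 0.15) or without mouse 5 (adjusted p = 0.0966 for both). The pairs that passed by Spearman's rho alone were Srd5a2 and Kap (r = 0.28, adjusted p = 0.0727; rho = 0.33, adjusted p = 0.0337) and Kap and Hao2 (r = 0.29, adjusted p = 0.0727; rho = 0.31, adjusted p = 0.0465). With batch means removed, Srd5a2 and Kap passed by both (r = 0.35, adjusted p = 0.0191; rho = 0.42, adjusted p = 0.00597) and Kap and Hao2 by neither (adjusted p = 0.361 and 0.556). After the correction for unwanted variation neither pair passed (r = 0.13 and -0.0060, adjusted p = 0.549 and 0.98), while Kap and Prlr (r = -0.40, adjusted p = 0.00952) and Hao2 and Acsm3 (r = -0.60, adjusted p = 0.0001) did. Acsm3 and Prlr then passed by rho alone (r = -0.33, adjusted p = 0.0532; rho = -0.35, adjusted p = 0.0255). Before that correction Kap and Prlr, Hao2 and Acsm3, Acsm3 and Prlr, and Srd5a2 and Prlr passed by neither measure, with r between -0.27 and -0.063 and adjusted p from 0.0713 to 0.664.

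The same pairs were then computed within each genotype alone, over 30 mice and with adjustment over 10 pairs. In controls Srd5a2 and Acsm3 gave r = 0.84 (adjusted p = 0.0003, permutation), Kap and Acsm3 gave 0.61 (0.00635), Srd5a2 and Hao2 gave -0.54 (0.0299), Srd5a2 and Prlr gave -0.51 (0.0299), Hao2 and Acsm3 gave -0.56 (0.0199) and Acsm3 and Prlr gave -0.49 (0.0299). Srd5a2 and Kap passed there by Spearman's rho (0.50, adjusted p = 0.0169) but not by r (0.41, adjusted p = 0.0577). In controls, Srd5a2 and Acsm3 thus went together and against both Hao2 and Prlr, although Hao2 and Prlr did not pass with each other (r = 0.33, adjusted p = 0.12). In cKOt mice the 6 pairs that passed by r in controls gave r of 0.48, 0.30, -0.18, 0.048, -0.020 and -0.067, with adjusted p from 0.0744 to 0.92. There Kap and Hao2 gave r = 0.65 (adjusted p = 0.0015), against -0.069 in controls. The difference between the genotypes in these correlations was not tested.

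**Figure D4:**
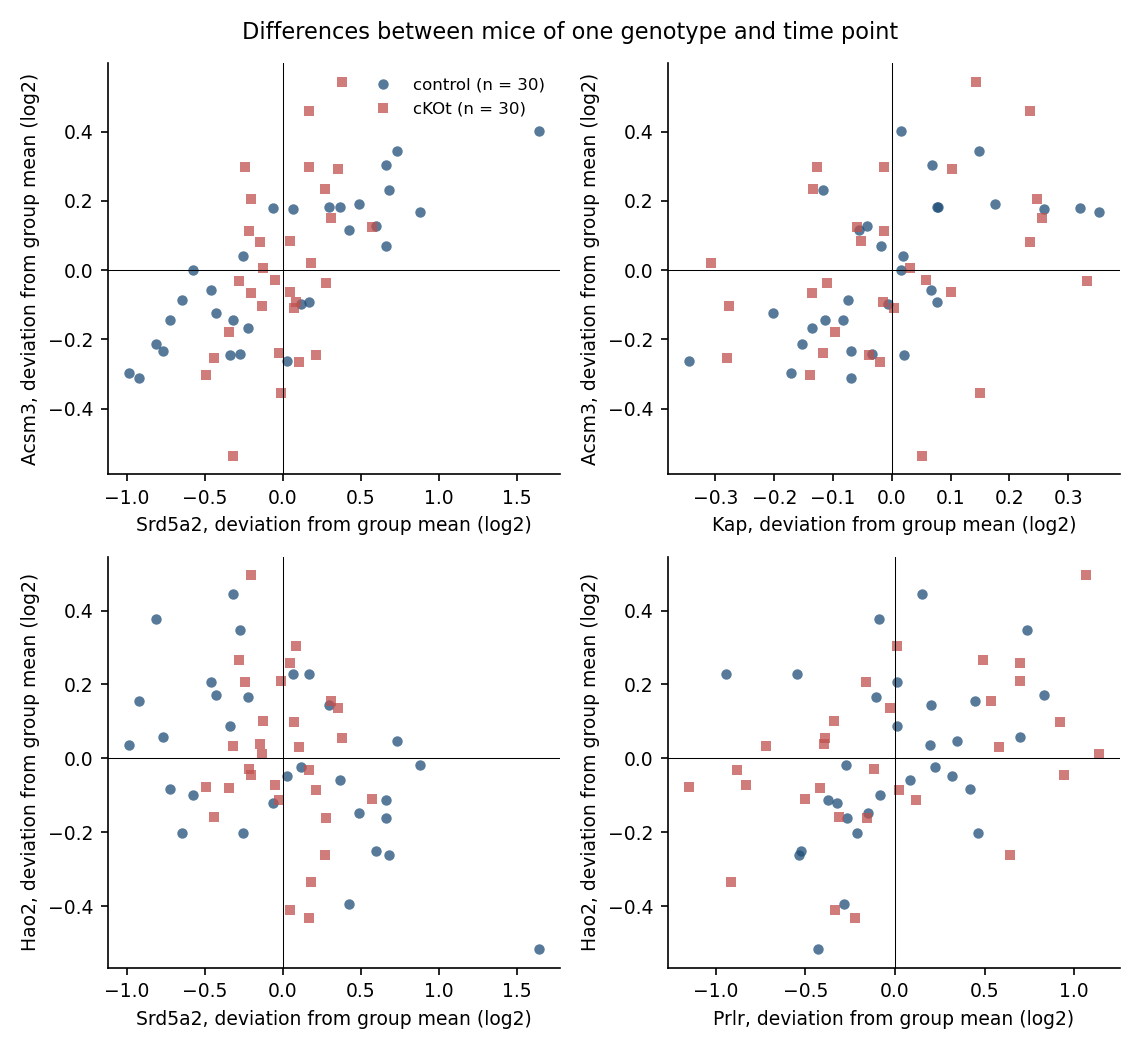
Deviation of each mouse from the mean of its group, in log2 CPM on both axes, for 4 pairs of genes (circles, 30 control mice; squares, 30 cKOt mice). The cloud rises for Srd5a2 and Acsm3 (r = 0.64 over 60 mice), for Kap and Acsm3 (0.43) and for Prlr and Hao2 (0.38), and falls for Srd5a2 and Hao2 (-0.41).

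Other genes with patterns most like the members were sought among 10864 genes with a mean of at least 5 CPM. Over the 12 group means, which also carry the difference between genotypes, the nearest to Srd5a2 were Hsd11b1 (r = 0.99), Cyp2a5 and Gusb, to Kap Psmc6 (0.97), Prdx1 and Atp5j, to Hao2 Car5b (1.00), Fgg and Arg2, to Acsm3 Lypla1 (0.98), Phyh and Cd36, and to Prlr Igfbp7 (0.95), Cyp2c23 and Slc7a12. Over the deviations of the 60 mice, which do not carry it, other genes came first. Srd5a2 was then followed most closely by Tmem237 (r = 0.79), Slco1a1 (0.78), an organic anion transporter, and Selenop (0.75). Kap was nearest to Psmb7 (0.90), a proteasome subunit, and to the respiratory complex subunits Ndufa4 (0.89) and Ndufs4 (0.89). Hao2 was nearest to Folh1 (0.69), Sult1c2 (0.64) and Bhmt (0.63), Acsm3 to Galnt1 (0.82), Kat2b (0.80) and Agps (0.80), and Prlr to Fmo2 (0.73), Slit2 (0.62) and Etnk1 (0.60). These correlations are across mice of the same libraries and are descriptive. They were computed on log2 CPM without the correction for unwanted variation. After that correction r of Kap with Acsm3 was 0.0041 in place of 0.43, and the nearest genes were not sought again on corrected values.

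Transcripts known as androgen-induced or male-biased in mouse kidney were mostly lower in cKOt mice. Of 19 such genes, all retained, 14 were lower, 3 were higher and 2 did not pass (edgeR's quasi-likelihood test, adjusted p under 0.05), where 50.0% of all genes passed, 23.2% lower and 26.8% higher. The median log2 difference of the 19 was -0.52, against 0.012 over all genes. Cyp4a12a, a male-biased fatty acid hydroxylase, went from 187 ± 69.3 to 32.1 ± 19.3 CPM (SD, n = 30 each; log2 difference -2.59 ± 0.16, SE). Hsd11b1, which regenerates active glucocorticoid, went from 315 ± 71.0 to 86.0 ± 14.0 CPM (-1.87 ± 0.075), and Gusb, the lysosomal beta-glucuronidase, from 116 ± 33.2 to 54.9 ± 8.29 CPM (-1.08 ± 0.081). Cyp4a12b differed by -2.03 ± 0.15, and as a near-identical copy of Cyp4a12a its counts are uncertain. The adjusted p of these 4 lay between 1.85e-28 and 7.27e-17. The 3 genes higher in cKOt mice were Cyp7b1, Timd2 and Slc22a13, at 0.48, 0.33 and 0.21.

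Transcripts known as female-biased leaned the other way. Of 9 genes 5 were higher in cKOt mice, 2 were lower and 2 did not pass, with a median of 0.45. Slc7a12, an amino acid transporter, went from 1.64 ± 1.00 to 41.4 ± 18.7 CPM (SD, n = 30 each), a log2 difference of 4.60 ± 0.16 (adjusted p = 3.72e-31, edgeR), and the lowest cKOt mouse (17.5 CPM) was above the highest control (5.33 CPM). Slc22a29, an organic anion transporter, went from 4.74 ± 1.32 to 9.45 ± 2.49 CPM (0.96 ± 0.081). The list also held Cyp2a4, a testosterone hydroxylase known as female-biased in mouse liver but androgen-induced in mouse kidney. It went from 527 ± 99.1 to 64.4 ± 12.7 CPM (-3.03 ± 0.072), and its counts are uncertain because of its near-identical copy Cyp2a5. Counted with the androgen-induced genes, a change made after its value was seen, it left 5 higher and 1 lower of 8 female-biased genes (median 0.55) and gave 15 lower and 3 higher of 20 androgen-induced or male-biased ones (median -0.57). Rnf24, the other lower gene of the female-biased list, went from 287 ± 165 to 172 ± 42.2 CPM (-0.67 ± 0.098). Neither list held a gene that passed the interaction test, which only 3.08% of all genes passed, so lists this short could hold none by that share alone. Both lists were written with earlier results of these data known, so their directions are not independent evidence.

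**Figure D5:**
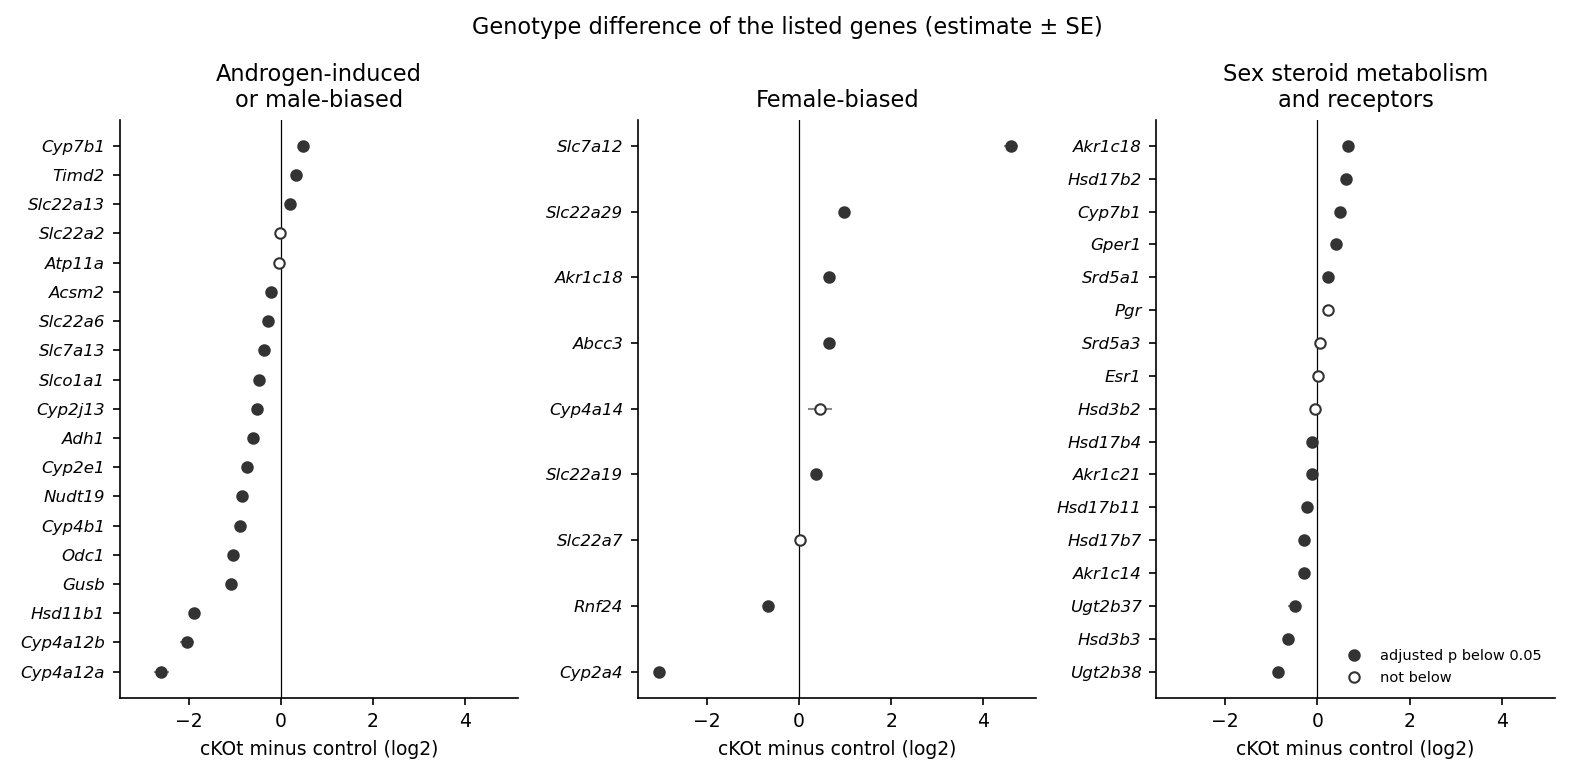
Genotype difference, as cKOt minus control on the log2 scale (horizontal axis, estimate with SE bars), of every retained gene in 3 lists (vertical axis, ordered by difference). Filled points passed edgeR's quasi-likelihood test at an adjusted p under 0.05 and open points did not. Androgen-induced or male-biased genes lie mostly left of 0 (14 of 19 lower), female-biased genes mostly right (5 of 9 higher, Cyp2a4 included among the lower), and genes of sex steroid metabolism and receptors on both sides (5 higher and 8 lower of 17).

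Enzymes and receptors of sex steroids moved in both directions. Of 31 listed genes 30 were matched and 17 retained, and of these 5 were higher in cKOt mice, 8 lower and 4 did not pass, with a median of -0.063, where 26.8% of all genes were higher and 23.2% lower. Srd5a1, the other steroid 5-alpha-reductase, was higher by 0.23 ± 0.042 (log2, SE; 26.6 ± 5.61 and 31.0 ± 4.88 CPM; adjusted p = 5.48e-06, edgeR), opposite to Srd5a2. Hsd17b2, which inactivates testosterone and estradiol by oxidation, went from 13.3 ± 2.97 to 20.4 ± 3.59 CPM (0.63 ± 0.056), and Akr1c18, a hydroxysteroid dehydrogenase that inactivates progesterone, from 40.0 ± 11.5 to 63.8 ± 15.2 CPM (0.66 ± 0.080). Ugt2b38, of a family that conjugates steroids with glucuronic acid, went from 1653 ± 310 to 922 ± 150 CPM (-0.86 ± 0.039), and Hsd3b3, a 3-beta-hydroxysteroid dehydrogenase, from 117 ± 18.2 to 76.5 ± 11.4 CPM (-0.63 ± 0.037). Counts of Ugt2b38, Hsd3b3 and Akr1c18 may be shared with close family members. Hsd17b2, Akr1c18, Ugt2b38 and Hsd3b3 had adjusted p from 3.29e-26 to 5.95e-10. Cyp11a1, which starts steroid synthesis, and Cyp17a1, which makes androgen precursors, were below the filter.

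Chaperones and coregulators of steroid receptors passed about as often as other genes. Of 26 genes 25 were retained, and 4 were higher, 8 lower and 13 did not pass, with a median of -0.032, against the 50.0% of all genes that passed. The heat shock proteins that hold steroid receptors ready for hormone were among the lower ones. Hsp90aa1 went from 252 ± 72.5 to 186 ± 50.0 CPM (SD, n = 30 each; log2 difference -0.45 ± 0.049, SE) and Hsp90ab1 from 1137 ± 200 to 910 ± 155 CPM (-0.32 ± 0.034). The co-chaperones Fkbp5, itself induced by glucocorticoid and androgen, and Stip1 were lower by -0.40 ± 0.075 and -0.23 ± 0.038. These 4 had adjusted p from 1.49e-11 to 9.54e-06 by edgeR, and all 4 also varied with time of day in both genotypes.

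Signaling genes around the prolactin receptor also passed about as often as other genes. Of 20 listed genes 17 were retained, and 4 were higher in cKOt mice, 4 lower and 9 did not pass, with a median of 0.0099, where again 50.0% of all genes passed. Stat5a, the transcription factor downstream of the receptor, went from 18.0 ± 2.44 to 22.6 ± 4.64 CPM (SD, n = 30 each; log2 difference 0.34 ± 0.046, SE; adjusted p = 8.79e-09, edgeR). Socs2, a feedback inhibitor of this signaling, went from 18.6 ± 7.95 to 24.9 ± 11.8 CPM (0.35 ± 0.14; adjusted p = 0.0283), and this call did not pass without mouse 1 (0.152) or mouse 3 (0.0501) of every group. Ghr, the related growth hormone receptor, went the other way from Prlr, from 1066 ± 99.1 to 806 ± 81.2 CPM (-0.42 ± 0.020; adjusted p = 3.45e-25). Cyp27b1, which activates vitamin D, went from 5.12 ± 3.20 to 2.27 ± 1.48 CPM (-1.18 ± 0.18; adjusted p = 1.71e-07).

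A list of acyl-CoA synthetases related to Acsm3, of Hao1 and of other enzymes of hydroxyacid, glyoxylate, peroxisomal and acyl-glycine metabolism held 15 genes. All 12 that were retained passed the test, 7 higher and 5 lower in cKOt mice, with a median of 0.16, where 50.0% of all genes passed. Acsm1, another medium-chain acyl-CoA synthetase, differed from Acsm3 in direction and went from 213 ± 24.2 to 309 ± 30.9 CPM (SD, n = 30 each; log2 difference 0.53 ± 0.035, SE; adjusted p = 3.15e-19, edgeR). Acsm2 was lower by -0.21 ± 0.023. Phyh, the peroxisomal phytanoyl-CoA hydroxylase, went from 885 ± 105 to 614 ± 53.2 CPM (-0.54 ± 0.029) and Glyat, a mitochondrial glycine acyltransferase, from 818 ± 97.6 to 563 ± 67.7 CPM (-0.56 ± 0.024), with adjusted p of 1.74e-22 and 3.28e-27. Hao1, the relative of Hao2 known from liver, was below the filter.

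Genes beside the members on the chromosome did not all share their differences. Agxt2, a mitochondrial aminotransferase that starts 9352 bases beyond the end of Prlr on chromosome 15, went from 140 ± 15.2 to 256 ± 33.3 CPM (SD, n = 30 each), a log2 difference of 0.85 ± 0.029 (SE; adjusted p = 1.03e-31, edgeR) in the direction of Prlr. Hsd3b3, 111394 bases from Hao2 on chromosome 3, was lower, while Wars2 on the other side was higher by 0.25 ± 0.028 (adjusted p = 3.57e-11). Smim10l1 and Etv6, on either side of Kap on chromosome 6, differed by -0.15 ± 0.024 and -0.20 ± 0.025 (adjusted p = 3.98e-07 and 1.40e-09). Memo1 beside Srd5a2 on chromosome 17 differed by -0.085 ± 0.025 (adjusted p = 0.00339), a call that did not pass without the factors of unwanted variation (0.0723). Xdh beside Srd5a2, Thumpd1 and Eri2 beside Acsm3 and Spef2 beside Prlr did not pass, with adjusted p of 0.88, 0.50, 0.44 and 0.90.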

How the data were processed

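RNA was sequenced from more mice than the 60 used here, after poly(A) selection with a stranded kit (TruSeq Stranded mRNA). The study kept 5 mice per group, by RNA integrity and by distance from their replicates in plots of the samples, to remove outliers. Per the submitters' processing notes reads were handled with bcl2fastq, cutadapt (version 1.8), STAR (2.5.3a) and HTSeq (0.9.1) on GRCm38. The deposited values are raw read counts per Ensembl gene, which the authors did not normalize. Lines of reads assigned to no gene (7.17% to 10.6%) or to several genes (0.953% to 1.27%) were left out. These percentages are of the reads counted to genes, to no gene or to several genes in each library. Any lines for reads of low alignment quality, with no alignment or with several alignments were also left out and are not in these percentages. RNA integrity numbers (7.9 to 9.6) and 6 batches of 9 to 12 mice (what was batched is not given there) were taken from the study's sample list, and each batch held both genotypes.

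Symbols were matched for 55154 of 55335 IDs with GENCODE. Genes that reached 1 CPM in 1 or more libraries were kept (15546 genes), scaled by TMM, and tested with edgeR (version 4.0.16) by quasi-likelihood over 12 groups with 2 RUVs factors of unwanted variation, a threshold of 0.05 after Benjamini-Hochberg adjustment over all genes and a log prior count of 2. Rhythm was modeled by 24 h harmonic regression in 5 models weighed by BIC, assigned at a weight of at least 0.65. RPKM used the summed exon length. The tests were checked on simulated data. R was version 4.3.3, and limma (3.58.1) and DESeq2 (1.42.0) served in alternatives. Other alternatives were DESeq2 size factors, other filters on low counts, no RUVs factors, batch in their place, the replicate number as a block, omission of the marked library and omission of each replicate number in turn.

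The 5 members and all gene lists were chosen with earlier results of these data known. Named beside them are Arntl, up to 4 genes per list with the largest difference among those past the threshold, the 3 genes most alike each member by either measure, and the nearest retained protein-coding neighbors. Further list members (Srd5a1, Cyp7b1, Timd2, Slc22a13, Acsm2, Hao1, Cyp11a1 and Cyp17a1) were named after their values were seen. Sts was not matched, and 1 listed gene is not reported here. Mice with the same replicate number did not deviate together (mean correlation 0.0043 over 330 pairs, against -0.0010 over 1320 others), so the numbers do not pair mice. Replicates were separate mice, and all 120 pairs within groups differed by more than sampling noise.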

Additional observations from a re-analysis of the deposited data

Results flagged for a closer look

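In 6 of 60 groups of 5 mice examined for the 5 genes, the highest mouse stood apart from the rest by Dixon's criterion. Chance alone meets it in about 1 in 20 groups of mice taken without selection, where values are normally distributed. It was applied here to CPM without a log scale, and such values need not be normally distributed. The study had chosen these mice partly by distance from the others of their group, so that rate need not hold here. Srd5a2 was at 32.2 CPM in control mouse 3 at ZT0, where the next mouse was at 9.79, and at 4.05 CPM in 1 cKOt mouse at ZT0, where the next was at 3.10. Hao2 was at 95.2 CPM in 1 control at ZT16, above the next at 79.9. Prlr was at 11.2 CPM in 1 control at ZT0 (next 6.32), at 9.4 CPM in 1 control at ZT8 (next 5.19) and at 31.4 CPM in 1 cKOt mouse at ZT16 (next 19.7).

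The difference of Hao2 between genotypes changed with time of day by the interaction test of edgeR (adjusted p = 0.00145). The mean log2 difference was 2.53 at ZT0 and 3.52 at ZT16.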

How the results depend on the processing

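Of 1111 values recomputed under alternatives, 1051 were counted as unchanged. Test results and correlations had to keep their direction and their side of the threshold, and counts of genes to stay within 1.5 times. Rhythm weights had to give the same assigned model. The log2 differences of the 5 genes had to keep their sign and move by less than the pooled SD between mice of a group. The 1051 also hold 14 shares of passing genes higher in cKOt mice (48.8% to 54.4%), which had no criterion. The 70 log2 differences of the 5 genes between genotypes all met theirs. The choice of the genes drew on this difference, so this describes its stability to processing only. For Kap the SDs between mice (0.17 and 0.18) were about as large as the difference itself (-0.18), so its criterion was loose. Its alternatives ran from -0.22 to -0.14. With the replicate number as a block, every value was counted as unchanged, and the interaction of Hao2 had an adjusted p of 0.00283 by edgeR.

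With Cyp2a4 counted as androgen-induced, an alternative added after seeing the data, 1 female-biased gene was lower in place of 2. Genes passing the interaction test numbered 479, and 263 without RUVs factors, 312 with batch in their place and 233 to 429 when 1 replicate number was left out. Time effects in cKOt mice numbered 4142, and 2608 to 3375 when 1 replicate number was left out, the lowest without replicate 4. Time in controls for Srd5a2 had an adjusted p of 0.042 by limma-trend and 0.00384 to 0.521 over the replicates left out, and the interaction of Hao2 0.000464 to 0.0538. Rhythm weights with 1 replicate number left out were 0.627 to 0.946 for Srd5a2, 0.576 to 0.925 for Kap, 0.553 to 0.867 for Hao2 and 0.402 to 0.827 for Acsm3. Without the RUVs correction they were 0.617 for Srd5a2 and 0.700 for Hao2. A weight limit of 0.8 left Srd5a2 (0.785), Kap (0.757) and Acsm3 (0.709) unassigned, and one of 0.5 assigned Hao2 (0.614).

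With values corrected by RUVs, r was -0.0060 for Kap and Hao2, 0.0041 for Kap and Acsm3, -0.40 for Kap and Prlr, -0.60 for Hao2 and Acsm3 and 0.29 for Hao2 and Prlr. With batch means removed, Srd5a2 and Kap gave 0.35. In controls alone r was -0.51 for Srd5a2 and Prlr, -0.069 for Kap and Hao2, -0.56 for Hao2 and Acsm3, 0.33 for Hao2 and Prlr and -0.49 for Acsm3 and Prlr. In cKOt mice alone r was -0.18 for Srd5a2 and Hao2, 0.48 for Srd5a2 and Acsm3, 0.048 for Srd5a2 and Prlr, 0.65 for Kap and Hao2, 0.30 for Kap and Acsm3, 0.13 for Kap and Prlr and 0.45 for Hao2 and Prlr. With 1 replicate number left out, r ran from -0.37 to -0.035 for Acsm3 and Prlr, 0.19 to 0.37 for Kap and Hao2, -0.53 to -0.21 for Srd5a2 and Hao2, 0.31 to 0.50 for Hao2 and Prlr, -0.32 to -0.12 for Srd5a2 and Prlr and -0.11 to 0.031 for Kap and Prlr. Among neighbors, the log2 difference ran from -0.064 to 0.21 for Spef2 (negative without replicate 1 or 4, there -0.00999) and from -0.025 to 0.036 for Xdh (positive without replicate 3). The cause of these shifts was not tested, though fewer mice were tested in the last settings.

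Depth limits Prlr, with 43 reads in its lowest library, and Srd5a2, with 50, more than the other members.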
